A study of Mus musculus with 9 samples.

Results

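The cytokine genes described here are Tslp, Il19, Il20, Il24, Il6, Lif, Csf2, Csf3 and Tnf, which encode secreted signals that keratinocytes can release when the skin barrier is damaged. They were chosen by name, and every probe set that the platform annotation gives to one of them alone was used. This gave 9 probe sets for 8 of the 9 genes, among 45037 probe sets for 18193 genes in all. Lif had 2 probe sets. Il19 had no probe set in the annotation used and was not analysed here.

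The study measured RNA in trunk epidermis of newborn mice on Affymetrix Mouse Genome U430 2.0 arrays, where each probe set targets sequence near the 3′ end of an mRNA. The knockout group held 4 arrays from mice labelled Alox12b-KO, which lack 12R-lipoxygenase, and were bred from heterozygous parents. The wildtype group held 5 arrays from mice labelled WT, with strain 129S6 given in their description. The labels give no strain for the knockout mice, name no litter, and call the samples biological replicates. All mice were killed just after birth, and epidermis was pulled from dermis after skin had been dipped in hot buffered saline. The arrays hold bulk RNA, so fewer cells of a type and less RNA per cell cannot be told apart.

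TSLP is an epithelial cytokine that acts on dendritic and other immune cells and is known for its part in atopic inflammation. IL-19, IL-20 and IL-24 form a subfamily of the IL-10 family that signals to keratinocytes through receptors of the IL-20 and IL-22 type and the transcription factor STAT3. IL-6 and LIF share the receptor chain gp130, GM-CSF and G-CSF (from Csf2 and Csf3) drive myeloid cells, and TNF acts through NF-kB. Messenger RNAs of several of these cytokines carry AU-rich elements and are short-lived, so that steady levels in resting tissue are often low.

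Promoter sequence is shown for Il6 and Il20, which are 2 of the 3 genes with an unadjusted p under 0.05 below. For the other one, Il24, and for Tslp and Csf3, the sequence table used here gave no entry. The sequences are from RefSeq (GRCm38.p6), run 5′ to 3′ and end at the base before the transcription start. Capitals mark matches to 5 motifs searched on both strands. These were kappa B (GGGA and CC with 4 bases of any kind between them), AP-1 (TGANTCA), CRE (TGACGTCA), C/EBP (TTGCNNAA) and STAT (TTCNNNGAA).
Il6, chr5:30012864-30013113, plus strand: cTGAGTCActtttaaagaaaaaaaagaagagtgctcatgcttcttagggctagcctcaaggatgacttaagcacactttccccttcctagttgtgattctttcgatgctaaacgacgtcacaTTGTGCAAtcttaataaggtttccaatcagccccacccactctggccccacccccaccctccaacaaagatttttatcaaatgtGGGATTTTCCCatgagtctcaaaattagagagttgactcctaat
Il20, chr1:130911297-130911546, minus strand: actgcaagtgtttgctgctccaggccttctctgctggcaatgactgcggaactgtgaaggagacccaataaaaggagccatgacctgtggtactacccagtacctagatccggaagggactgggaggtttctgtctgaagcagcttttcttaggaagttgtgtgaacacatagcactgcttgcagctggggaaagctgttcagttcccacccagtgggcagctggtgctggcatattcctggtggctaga
The Il6 window held an AP-1 match 249 to 243 bases before the start, a C/EBP match 128 to 121 bases before it, and kappa B matches on both strands that overlap, 44 to 34 bases before it. The Il20 window held none of the 5 motifs. Of 32851 mouse promoter windows of 250 bases, 17.63% held a kappa B match, 6.75% an AP-1 match and 9.56% a C/EBP match. These matches are a description of letters and were not measured as binding here.

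Every value of the 9 cytokine probe sets was low, between 1.74 and 4.04 on the log2 scale, on arrays whose medians ran from 3.14 to 3.31. No detection calls were used here, so a background mark was set from genes of retina, germ cells, pancreas, heart, liver, kidney and other organs that epidermis is not known to use. Their 71 probe sets had a median of 2.57, a 90th percentile of 4.34 and a 95th percentile of 4.68, which served as the mark. Of 72 values, 8 genes on 9 arrays, 0 lay above the mark and 0 above the 90th percentile. Of the 8 genes, 2 had a mean below the median of the tissue-restricted probe sets. Among all probe sets on the arrays, the means of the 9 cytokine probe sets stood between percentiles 6.6 and 57.8. By mean, 57.0% of all genes also lay below the mark. In comparison, the means of all 7 keratinocyte markers, the keratins Krt5, Krt14, Krt1 and Krt10 with Lor, Flg and Ivl, lay above it, with a list mean of 12.14 to 12.24 on the knockout arrays and 11.70 to 12.37 on the wildtype arrays. Background differs between probe sets, so the mark is a rough guide, and levels of different cytokine genes are not ordered against each other. A log2 difference between values this low can understate a change, and no fold is given for them. The arrays therefore did not show that any of the 8 genes was expressed in either group.

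**Figure D1:**
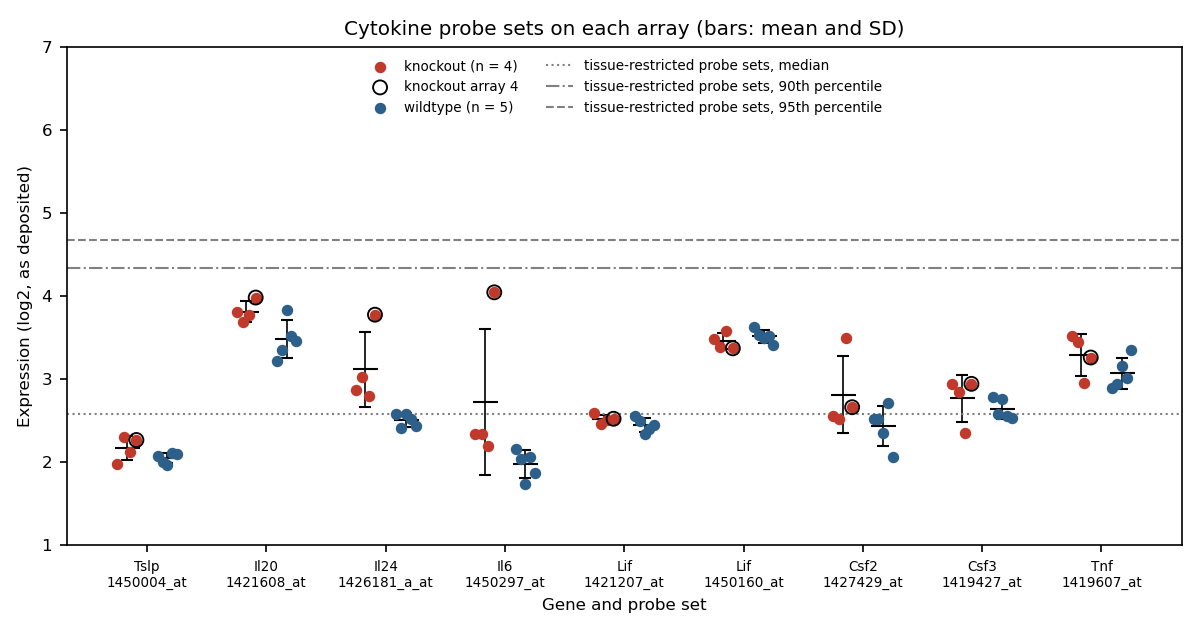
Log2 expression (y axis) of the 9 cytokine probe sets (x axis) on 4 knockout and 5 wildtype arrays, with points for arrays, bars for mean and SD, a ring for knockout array 4, and grey lines for the median, 90th and 95th percentile of 71 probe sets of tissue-restricted genes. All points lie under the upper pair of lines, and for Il24 and Il6 the knockout points lie above the wildtype points, with knockout array 4 farthest.

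The epithelial cytokine Tslp showed no difference past the threshold. Its probe set 1450004_at read 1.98, 2.30, 2.12 and 2.26 on knockout arrays 1 to 4, and 2.07, 2.00, 1.97, 2.11 and 2.10 on wildtype arrays 1 to 5. The groups overlapped, and the lowest knockout value lay within the wildtype range. The log2 difference, knockout minus wildtype, was 0.12 with a 95% interval of -0.12 to 0.36 and a limma adjusted p of 0.576.

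In the IL-20 subfamily, Il24 had the clearest separation of the groups. Its probe set 1426181_a_at read 2.86, 3.03, 2.79 and 3.77 on knockout arrays 1 to 4, and 2.58, 2.41, 2.58, 2.52 and 2.43 on wildtype arrays 1 to 5. All knockout values lay above all wildtype values, and knockout array 4 was the highest. Il24 averaged 3.12 ± 0.45 (SD, n = 4) on knockout arrays and 2.51 ± 0.08 (SD, n = 5) on wildtype arrays. The log2 difference was 0.61 (SE 0.19) with a limma adjusted p of 0.143, which did not pass 0.05. The exact two-sided permutation p was 0.0159, the smallest that the 126 assignments of 9 arrays can give, without adjustment for the genes looked at. Il20, which lies in the same gene cluster, read 3.81, 3.68, 3.77 and 3.98 on knockout arrays 1 to 4. It read 3.22, 3.35, 3.83, 3.52 and 3.45 on wildtype arrays 1 to 5. Wildtype array 3 lay within the knockout range and the other wildtype arrays below it. The log2 difference of Il20 was 0.33 with a 95% interval of 0.03 to 0.64 before adjustment and a limma adjusted p of 0.244.

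Among the cytokines that signal through gp130, Il6 differed between the groups mainly through 1 array. Its probe set 1450297_at read 2.34, 2.33, 2.20 and 4.04 on knockout arrays 1 to 4, and 2.16, 2.04, 1.74, 2.06 and 1.87 on wildtype arrays 1 to 5. The groups did not overlap, but knockout arrays 1 to 3 lay close to the wildtype maximum. Il6 averaged 2.73 ± 0.88 (SD, n = 4) on knockout arrays and 1.97 ± 0.17 (SD, n = 5) on wildtype arrays, with a log2 difference of 0.76 (SE 0.33), a limma adjusted p of 0.268 and an exact permutation p of 0.0159. Without knockout array 4 the difference was 0.32, with a limma adjusted p of 0.322. Lif, a cytokine that maintains stem cells and acts in inflammation, was flat. Its brighter probe set, 1450160_at, read 3.48, 3.38, 3.58 and 3.37 on knockout arrays 1 to 4, and 3.63, 3.52, 3.50, 3.52 and 3.40 on wildtype arrays 1 to 5. The other, 1421207_at, ran from 2.45 to 2.59 on knockout arrays and from 2.33 to 2.56 on wildtype arrays. The log2 differences were -0.06 and 0.07, of opposite sign, with limma adjusted p values of 0.774 over all genes for the brighter and 0.742 over all probe sets for the other. In the fit over all 45037 probe sets, 1.11% of them passed and 0 of the 9 cytokine probe sets did.

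The colony-stimulating factor genes each had 1 knockout array apart from the rest. Csf2 read 2.56, 2.52, 3.50 and 2.66 on knockout arrays 1 to 4, and 2.52, 2.52, 2.35, 2.71 and 2.06 on wildtype arrays 1 to 5. Knockout array 3 was high and the other knockout arrays lay within the wildtype range. The log2 difference of Csf2 was 0.38 with a 95% interval of -0.09 to 0.85 and a limma adjusted p of 0.373, and without knockout array 3 it was 0.15. Csf3 read 2.94, 2.85, 2.35 and 2.94 on knockout arrays 1 to 4, and 2.78, 2.58, 2.76, 2.55 and 2.53 on wildtype arrays 1 to 5. Here knockout array 3 was the lowest of all arrays, and the others lay above the wildtype range. The log2 difference of Csf3 was 0.13 with a 95% interval of -0.19 to 0.44 and a limma adjusted p of 0.656, and without knockout array 3 it was 0.27.

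Tnf, the founding member of the TNF family, read 3.52, 3.44, 2.95 and 3.26 on knockout arrays 1 to 4. It read 2.89, 2.93, 3.16, 3.01 and 3.35 on wildtype arrays 1 to 5. Knockout arrays 1 and 2 lay above all wildtype arrays and knockout arrays 3 and 4 within their range. The log2 difference was 0.23 with a 95% interval of -0.10 to 0.55 and a limma adjusted p of 0.446.

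In total, limma called 0 of 8 cytokine genes at an adjusted p of 0.05, where it called 1.24% of 18193 genes in either direction. Among the 10365 genes whose mean lay below the background mark, 41 genes, or 0.396%, passed. At an unadjusted p under 0.05 there were 3 of the 8, Il24, Il20 and Il6, all higher in knockout, where 17.8% of all genes stood at that level and 7.08% were higher. The groups did not overlap for 2 of the 8, Il24 and Il6, again higher in knockout, where 8.28% of all genes did not overlap and 3.14% were higher without overlap. Among the genes with a mean below the mark, 2.88% were higher without overlap. The difference was positive for 7 of the 8 genes and negative for Lif, with a median of 0.28, beside 53.5% positive differences and a median of 0.02 over all genes. With limma's array weights, which ranged from 0.31 for knockout array 4 to 3.37 for knockout array 2, 2 of the 8 passed. These were Il24, by 0.51 with a limma adjusted p of 0.0178, and Tnf, by 0.43 with a limma adjusted p of 0.0255, in a fit in which 9.04% of all genes passed.

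The knockout array with the highest Il6 and Il24 also had the most RNA of fibroblast markers. The mean of 7 markers, collagens Col1a1, Col1a2 and Col3a1, the matrix proteoglycans Dcn and Lum and the receptors Pdgfra and Pdgfrb, reached 8.37 on knockout array 4, while the other 8 arrays gave 4.93 to 7.06. All 7 were highest on that array, among them Col1a1 at 9.59 against at most 8.17 elsewhere. By group, the list mean ran from 5.32 to 8.37 on knockout arrays and from 4.93 to 7.06 on wildtype arrays, and 0 of 7 markers passed in limma. The part of these cells in the Il6 and Il24 values was not tested. On knockout arrays 1 to 3, Il24 ran from 2.79 to 3.03, with a wildtype maximum of 2.58. Without knockout array 4 the Il24 difference was 0.39 with a limma adjusted p of 0.176. Il6 ran from 2.20 to 2.34 on the same 3 arrays, with a wildtype maximum of 2.16.

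**Figure D2:**
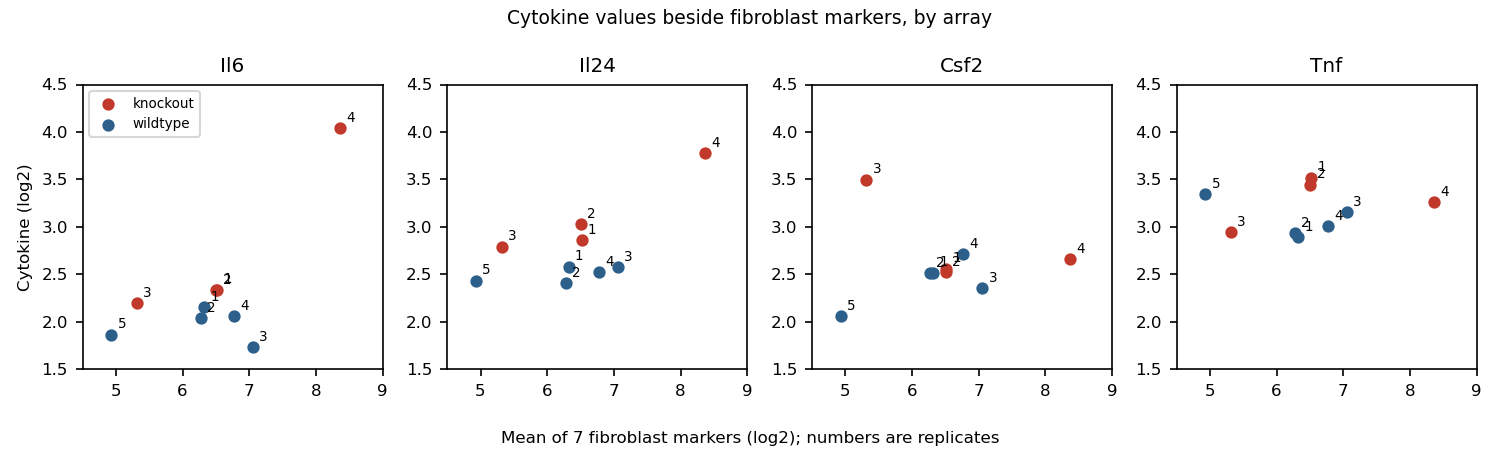
Log2 values of Il6, Il24, Csf2 and Tnf (y axes) against the mean of 7 fibroblast markers (x axis, log2) on each array, with replicate numbers beside the points. Knockout array 4 stands at 8.37 on the x axis, with 4.04 for Il6 and 3.77 for Il24, while for Csf2 the highest point is knockout array 3 and for Tnf knockout array 1.

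By the fixed rule, genes with a profile like that of a cytokine were sought where its values spanned at least 2 on the log2 scale, which held for Il6 alone. Likeness was the root mean square difference between log2 profiles over the 9 arrays after each gene's mean was removed. The nearest was Ptgis, prostacyclin synthase, at 0.18, followed by Nefm, a neurofilament gene, at 0.21, and Cfap47 at 0.22. Ccn4, a secreted matricellular protein gene, stood at 0.23 and Cnn1, the smooth muscle protein calponin, also at 0.23. The search matched profiles to Il6, so that all 5 were highest on knockout array 4 follows from the choice. Ptgis stood at 4.71 and Cnn1 at 4.39 there.

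Most markers of the immune cells that make or answer these cytokines lay below the background mark, as did 57.0% of all genes by mean. Among T cell markers 1 of 5, Cd3e, had a mean above the background mark, and the list mean was 3.14 to 3.53 on knockout arrays and 3.26 to 3.65 on wildtype arrays. Neutrophil markers had 1 of 6 above it, with 3.39 to 4.01 on knockout arrays and 3.00 to 3.95 on wildtype arrays, and knockout array 4 was the highest. Mast cell markers had 2 of 6, with 3.08 to 3.98 on knockout arrays and 2.91 to 4.96 on wildtype arrays. Langerhans cell and macrophage markers had 3 of 8, with a list mean of 4.77 to 5.05 on knockout arrays and 4.05 to 5.73 on wildtype arrays, and the Langerhans cell marker Cd207 lay below the mark. Endothelial markers had 0 of 5 above it. No gene of these lists passed in limma, and the ranges of the groups overlapped for each.

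The targeted gene and the sex-linked gene Xist bear on the labels. Alox12b read 10.84 to 11.60 on knockout arrays and 10.56 to 11.32 on wildtype arrays. It differed by 0.23 (limma adjusted p 0.547), and which part of the gene was deleted was not known here, so this value checks nothing. Xist read 9.99 to 10.20 on the knockout arrays and 10.95 on wildtype array 4, but 3.23 to 4.32 on the other wildtype arrays. Sex and genotype therefore cannot be told apart on most arrays. On wildtype array 4, Il24 read 2.52 and Il6 2.06, both within the range of the other wildtype arrays, as were Il20, Lif, Csf3 and Tnf. Csf2 at 2.71 and Tslp at 2.11 were the highest of the wildtype arrays there.

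Of 14 receptor genes for these cytokines, 0 rose and 1 fell, and 3 had an unadjusted p under 0.05 in limma, where 17.8% of all genes did. The one that fell was Lifr, the receptor chain that binds LIF, which read 3.68, 3.33, 2.43 and 3.01 on knockout arrays 1 to 4. It read 4.56, 4.73, 5.24, 5.09 and 3.76 on wildtype arrays 1 to 5. All knockout values lay below all wildtype values, and knockout array 1 and wildtype array 5 were the closest. Only 3 of the 9 arrays lay above the background mark. Lifr differed by -1.57 (SE 0.32) with a limma adjusted p of 0.0407. It did not pass with the mean of its probe sets, at -0.45 with a limma adjusted p of 0.124, and its dimmer probe sets differed by 0.07 and 0.14. Of the 9 fits that left out 1 array, Lifr passed without knockout array 1 and without wildtype array 5. In the other 7, without knockout arrays 2, 3 and 4 or wildtype arrays 1 to 4, limma adjusted p values ran from 0.0829 to 0.114.

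The means of 5 receptor genes lay above the background mark. Il20rb, a chain of the IL-20 receptors, averaged 7.61 in knockout and 8.02 in wildtype. Il22ra1, which pairs with it for IL-20 and IL-24, averaged 6.47 in knockout and 6.27 in wildtype. Il6st, which encodes gp130, averaged 7.01 in knockout and 6.83 in wildtype, and Il6ra 8.19 in knockout and 8.52 in wildtype. Tnfrsf1a, the main TNF receptor, averaged 9.02 in knockout and 8.67 in wildtype. None of these 5 passed, with limma adjusted p values from 0.217 for Tnfrsf1a to 0.729 for Il6st. Crlf2, the specific chain of the TSLP receptor, averaged 4.25 in knockout and 3.78 in wildtype, below the mark in both groups. It read 4.40 on wildtype array 4, which had a high Xist level, and 3.55 to 3.73 on the other wildtype arrays. The knockout arrays gave 4.06 to 4.34.

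Downstream of the receptors, 0 of 7 JAK-STAT genes passed in limma. At an unadjusted p under 0.05 there were 2, Stat5b and Stat3, where 17.8% of all genes stood at that level. Stat3 was named after its values were seen. The median difference of the 7 genes was -0.23. The largest differences were in the STAT5 genes, with Stat5b at 5.13 in knockout and 5.82 in wildtype and Stat5a at 5.64 in knockout and 6.18 in wildtype. The differences were -0.69 for Stat5b and -0.54 for Stat5a, and without knockout array 4 they were -0.43 and -0.36. With the mean of all probe sets of each gene they were -0.29 for Stat5b and -0.23 for Stat5a. Of 8 feedback genes that cytokines induce or that damp their signals, 1 rose and 0 fell. This was Cish, a SOCS-family inhibitor induced by STAT5. Cish read 8.85, 8.75, 8.13 and 8.21 on knockout arrays 1 to 4, and 7.51, 7.30, 7.64, 7.39 and 7.84 on wildtype arrays 1 to 5. The groups did not overlap, and the log2 difference was 0.95 (SE 0.18) with a limma adjusted p of 0.0343. It passed without knockout array 3 and without wildtype array 5, but not without knockout arrays 1, 2 and 4 or wildtype arrays 1 to 4, where limma adjusted p values ran from 0.0586 to 0.107. With the Xist level as a covariate, neither Lifr nor Cish passed, with limma adjusted p values of 0.348 for Lifr and 0.420 for Cish. Their differences in that fit were not smaller, at -2.01 for Lifr and 1.09 for Cish, and 9 of 18193 genes passed in it. The fit rests mainly on wildtype array 4, the only wildtype array with a high Xist level, so it separates sex from genotype poorly.

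Other feedback genes varied among the knockout arrays, and 5 of the 8, Cish included, had an unadjusted p under 0.05 in limma, where 17.8% of all genes did. Socs3, the inhibitor of gp130 signalling, read 8.44, 8.18, 5.89 and 6.99 on knockout arrays 1 to 4, and 5.91 to 6.56 on wildtype arrays. Bcl3, an atypical I-kappa-B protein, read 6.84, 6.90, 4.72 and 5.07 on knockout arrays 1 to 4, and 3.90 to 4.85 on wildtype arrays. Ptpn2, a phosphatase that acts on JAK and STAT proteins, read 8.41, 8.40, 7.48 and 7.69 on knockout arrays 1 to 4, and 7.35 to 7.87 on wildtype arrays. This probe set of Ptpn2 differed by 0.50, and its other probe sets by 0.29, -0.05 and 0.04. Pias3, an inhibitor of STAT3, averaged 5.48 in knockout and 6.19 in wildtype, a difference of -0.71 without overlap of the groups. These 4 genes were named after their values were seen. None passed, with limma adjusted p values of 0.247 for Socs3, 0.136 for Bcl3, 0.253 for Ptpn2 and 0.0842 for Pias3. For Socs3 and Bcl3, knockout arrays 1 and 2 were the highest, knockout array 4 lay above the wildtype maximum by less, and knockout array 3 did not lie above it.

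**Figure D3:**
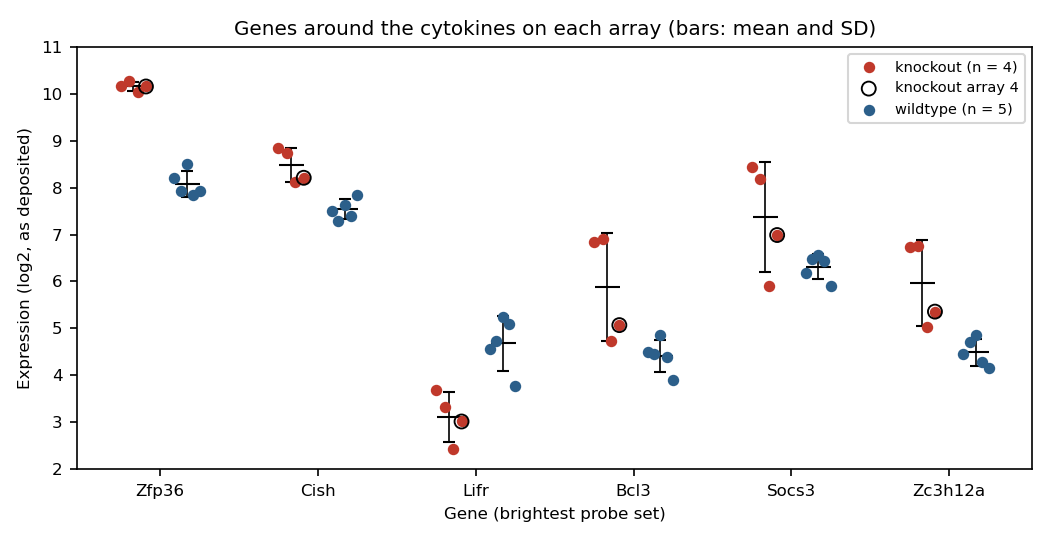
Log2 expression (y axis) of 6 genes around the cytokines (x axis, brightest probe set) on 4 knockout and 5 wildtype arrays, with points for arrays, bars for mean and SD and a ring for knockout array 4. Zfp36, Cish and Zc3h12a are higher on every knockout array and Lifr lower, while Bcl3 and Socs3 are highest on knockout arrays 1 and 2 and not above the wildtype maximum on knockout array 3.

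The largest difference in the lists around the cytokines was in Zfp36, which encodes tristetraprolin, a protein that binds AU-rich elements and speeds the decay of Tnf, Csf2 and other cytokine messages. Zfp36 read 10.17, 10.28, 10.05 and 10.16 on knockout arrays 1 to 4, and 8.20, 7.92, 8.50, 7.84 and 7.94 on wildtype arrays 1 to 5. The groups were far apart and the knockout values close together. It rose 4.24-fold, a log2 difference of 2.09 (SE 0.15, limma adjusted p 0.000227), and passed without each array in turn and with the Xist level as a covariate. The fit with Xist rests mainly on wildtype array 4, as stated above. In the list of 10 factors of cytokine mRNA decay and stability Zfp36 was the 1 gene that rose, and 0 fell. Of the 10, 4 had an unadjusted p under 0.05 in limma, where 17.8% of all genes did. Zc3h12a, the RNase regnase-1 that cleaves Il6 mRNA, read 6.73, 6.76, 5.02 and 5.36 on knockout arrays 1 to 4, and 4.15 to 4.86 on wildtype arrays. Its log2 difference was 1.48 with a limma adjusted p of 0.0775, but its other probe set differed by 0.18. Zc3h12a was named after its values were seen.

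In the remaining lists no gene passed in limma. Of 9 genes of TNF release and its receptor complex 0 passed and 4 had an unadjusted p under 0.05, beside the 17.8% of all genes given above. The largest differences here were in Birc3, an inhibitor of apoptosis that NF-kB induces, at 7.71 in knockout and 7.07 in wildtype, and Birc2, its relative, at 5.08 in knockout and 5.63 in wildtype. Birc3 differed by 0.64, but by 0.39 without knockout array 1 and by 0.15 in its other probe set. Birc2 differed by -0.55, but by -0.18 without wildtype array 5. Rhbdf1, an inactive rhomboid protein, was named after its values were seen and averaged 6.91 in knockout and 7.37 in wildtype, without overlap of the groups and with a limma adjusted p of 0.0945. Of 16 related cytokines 0 passed and 2 had an unadjusted p under 0.05. These were Il34, a ligand of the CSF1 receptor on Langerhans cells, at 5.01 in knockout and 5.78 in wildtype, and Il33, an epithelial alarmin, at 2.89 in knockout and 2.35 in wildtype. Il33 lay below the background mark on every array. Both had groups without overlap, as did 8.28% of all genes, and limma adjusted p values of 0.103 for Il34 and 0.0835 for Il33. Of 9 genes that regulate Tslp in epidermis, by limma, 0 passed and 0 had an unadjusted p under 0.05, with Notch1 at 5.86 in knockout and 6.35 in wildtype and Vdr, the vitamin D receptor, at 4.89 in knockout and 5.27 in wildtype. Without wildtype array 5 the Notch1 difference was -0.13 in place of -0.49 and the Vdr difference -0.24 in place of -0.38, and without knockout array 3 that of Vdr was also -0.24. Over all 7 lists, 2 of 73 measured genes rose and 1 fell, where 0.511% of all genes were called higher and 0.731% lower.

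**Figure D4:**
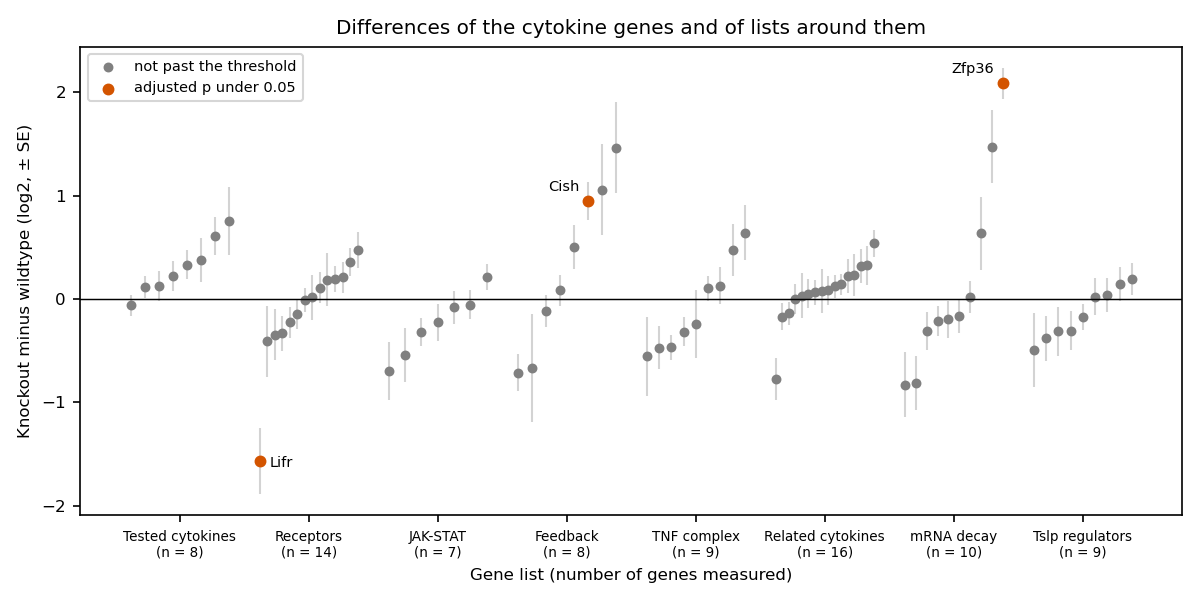
Log2 difference, knockout minus wildtype, with its SE (y axis) for each measured gene of the 8 cytokines and of the 7 lists around them (x axis, genes sorted by difference within a list). Orange points passed an adjusted p of 0.05 in limma, namely Lifr, Cish and Zfp36, and no cytokine gene did.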

How the data were processed

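Gene expression was measured in 4 knockout and 5 wildtype epidermis samples, 1 array each. The values are log2 expression as the authors deposited them, and the submitters' processing notes name affy. The sources used here do not give the background correction or normalization. They were used unchanged. Arrays carry no read depth, so the number of arrays limits the precision. Gene names came from the platform annotation and were updated by gene number. It gave 1 gene for 34945 of 45037 probe sets, several for 932 and none for 9160, and 34741 were found in the gene table of GRCm38.p6. The probe set with the highest mean stood for its gene.

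Differences were tested by lmFit and eBayes of limma 3.58.1 under R 4.3.3, with genotype as the only term and Benjamini-Hochberg adjustment over all 18193 genes, and probe sets in a fit over all 45037. The threshold was an adjusted p of 0.05. Single values also had exact permutation tests. The code was tested on simulated data. Where the labels do not name separate litters, p-values measure the spread between these samples.

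The cytokine genes and lists were chosen with earlier results of these data known. Named genes were the cytokines, called genes of each list (up to 3 per direction, otherwise the 2 largest differences as values), Alox12b, Xist and the 5 profiles nearest to a cytokine with a range of at least 2. Alternatives covered probe set choice, normalization, fit settings, the Xist level, the replicate block, other marks and each array left out.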

Additional observations from a re-analysis of the deposited data

Results flagged for a closer look

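In 42 groups of arrays, 9 values of the cytokines and named genes lay far from the rest of their group by Dixon's ratio at its 95% level. For genes not chosen by their values, chance gives about 1 in 20 groups. Most genes named besides the cytokines were chosen by their differences, and the groups share arrays. This rate therefore cannot be set against the count. Among the cytokines, Il6 stood at 4.04 on knockout array 4, while the others of its group gave 2.20 to 2.34. On knockout array 3, Csf2 stood at 3.50 (others 2.52 to 2.66) and Csf3 at 2.35 (others 2.85 to 2.94). Stat5b stood at 4.33 on knockout array 4, with 5.35 to 5.46 on the rest of the group.

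Notch1 stood at 6.12 on knockout array 1, with 5.76 to 5.79 on the rest of the group. On wildtype array 5, Stat5b read 6.62, Birc2 7.14, Il34 6.51 and Notch1 7.81. On the other wildtype arrays Stat5b read 5.51 to 5.68, Birc2 5.02 to 5.38, Il34 5.46 to 5.69 and Notch1 5.82 to 6.35.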

How the results depend on the processing

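The count of 0 called cytokine genes held under the alternatives run except array weights, which gave 2, and was 0 without each array in turn. At an unadjusted p under 0.05 there were 3. Of the cytokines, 7 kept a positive difference under every alternative in which they had a value, and Lif was at 0.0042 with the mean of its probe sets. Il24 and Zfp36, each measured by a probe set ending in _a_at, had no value in the fit that dropped probe sets by suffix. None of the cytokines had a value after the filter at the background mark. The median difference ran from 0.23 to 0.30 without each array in turn. The count of genes above the background mark was 0 at each mark tried and without each array. Every value lay below the 90th percentile, the lowest mark tried, so these alternatives left the count little room to change. The 3 genes called in the lists around the cytokines fell to 1, Zfp36, with the replicate block and with the Xist level as covariate, and ran from 1 to 4 without each array. Same-numbered arrays did not deviate together, with correlations of -0.21, -0.10, -0.21 and 0.18, so the replicate block rests on a number alone. Over all genes, 226 were called, against 1644 with array weights, 119 with the replicate block, 9 with the Xist level and 62 to 281 without each array. Cish and Lifr did not pass after median centring, with limma adjusted p values of 0.0777 and 0.0526. Leaving out knockout array 4 and wildtype array 5 together, chosen after seeing the data, gave 0 called cytokines, with Il6 at 0.29 and Il24 at 0.37. Values near background limit what differences in the cytokine genes could be seen.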
